A study of Mus musculus with 6 samples.

Results

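The HoxA digit landscape was described here as the span on the Hoxa13 side of the mouse HoxA cluster that begins just past Evx1 and runs through Hibadh, Tax1bp1 and Jazf1, from 52.32 to 53.07 Mb of mm10 chromosome 6, a span of 750 kb. Its members were all regions of 8 deposited peak lists that overlapped this span, after lines that gave several summits of the same interval had been collapsed to 1 region. There were 321 such regions of 379158 in the 8 lists together. H3K27ac, a histone mark of active enhancers and promoters, gave 62 regions in the distal forelimb (DFL, the presumptive digits) and 48 in the proximal forelimb (PFL, the presumptive forearm). H3K27me3, the mark laid down by Polycomb repressive complexes, gave 1 region in DFL and 6 in PFL. CTCF, an architectural protein that anchors chromatin loops, gave 30 regions in DFL and 26 in PFL. The lists of the digit transcription factors HOXA13 and HOXD13 gave 76 and 72 regions.

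The 6 samples were wild-type forelimb buds of strain B6CBAF1 at E12.5, 1 ChIP-seq library for each of the 3 marks in each of the 2 pieces, and no sample carried a mutation or received a treatment. The HOXA13 and HOXD13 lists are labelled as wild-type forelimb of E11 (the methods give a stage between E11 and that of the marks), belong to no sample of the series and come from whole limb buds, so they are of an earlier stage and another piece of tissue than the marks. All of these are libraries of earlier work that were processed again. The methods describe a single ChIP made from tissue pooled over several embryos, and no input control entered the peak calling. With 1 library per mark and piece no difference between DFL and PFL could be tested, no p-value was computed, and the 95% intervals below cover counting error only. Neighbouring regions are not independent, so that even these intervals may be too narrow. In such bulk tissue, fewer cells that carry a mark and less of the mark per cell cannot be told apart.

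The HoxA cluster is transcribed in the growing limb in successive phases, and its last gene, Hoxa13, is expressed in the presumptive digits. Remote elements spread beyond Evx1, several of them inside introns of unrelated genes, are known to act on it there. HOXA13 and HOXD13 bind many digit enhancers and are together required for digits to form. The genes that host or separate these elements have other functions: Hibadh encodes a mitochondrial enzyme of valine breakdown, Tax1bp1 an autophagy receptor, Jazf1 a zinc finger protein and Evx1 a homeodomain transcription factor.

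The DNA under the strongest HOX13 sites is shown first, since the comparison with acetylation turns on whether such sites lay in acetylated regions. Each window reaches 50 bases to either side of the HOXD13 summit, read from the plus strand of the GRCm38.p6 reference, which has the mm10 coordinates. Capitals mark the letters ATAAA or, for the minus strand, TTTAT. This short core was picked after the sequences had been seen. The first 4 windows belong to the HOXA13 and HOXD13 sites of highest HOXD13 fold that overlapped an H3K27ac region in DFL and none in PFL, and the last 4 to those that overlapped no H3K27ac region in either piece. No window lies in an untranslated region. The labels describe the whole HOX13 site, not the window printed. The first 4 windows lie outside the H3K27ac regions that their sites overlap. Their summits are 443, 333, 366 and 639 bp from the nearest DFL H3K27ac summit, in the printed order. The last window, of a site labelled not acetylated, has its summit 411 bp from a DFL H3K27ac summit.
Jazf1 intron, acetylated in DFL alone, chr6:52824907-52825007: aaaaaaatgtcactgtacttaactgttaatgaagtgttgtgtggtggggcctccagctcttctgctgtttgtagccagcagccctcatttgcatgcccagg
Jazf1 intron, acetylated in DFL alone, chr6:52975453-52975553: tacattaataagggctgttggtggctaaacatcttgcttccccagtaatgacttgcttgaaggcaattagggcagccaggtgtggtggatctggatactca
Jazf1 intron, acetylated in DFL alone, chr6:53023642-53023742: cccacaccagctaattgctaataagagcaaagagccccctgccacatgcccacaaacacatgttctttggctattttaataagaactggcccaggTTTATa
between Hibadh and Tax1bp1, acetylated in DFL alone, chr6:52673787-52673887: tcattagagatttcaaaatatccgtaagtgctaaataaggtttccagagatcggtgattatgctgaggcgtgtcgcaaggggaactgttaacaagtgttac
between Evx1 and Hibadh, not acetylated, chr6:52540114-52540214: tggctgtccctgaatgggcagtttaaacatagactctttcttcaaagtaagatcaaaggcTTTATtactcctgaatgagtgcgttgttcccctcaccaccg
between Evx1 and Hibadh, not acetylated, chr6:52476874-52476974: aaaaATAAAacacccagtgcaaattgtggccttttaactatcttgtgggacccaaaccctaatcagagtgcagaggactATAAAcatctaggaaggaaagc
Gm44434 exon inside Hibadh, not acetylated, chr6:52601688-52601788: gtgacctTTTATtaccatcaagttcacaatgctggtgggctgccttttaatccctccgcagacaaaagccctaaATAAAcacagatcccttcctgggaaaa
between Evx1 and Hibadh, not acetylated, chr6:52467961-52468061: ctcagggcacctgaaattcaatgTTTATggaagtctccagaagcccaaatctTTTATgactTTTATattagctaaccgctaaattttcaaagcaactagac

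None of these windows held CAATAAA or TCGTAAA, the HOX13 motifs searched on both strands, and the same was true of all 12 sites named below. Over all HOXD13 summits of the landscape, 8 of 72 windows (11.1%, 95% interval 5.74 to 20.4%) held either motif, against 13.6% of HOXD13 windows genome-wide and 2.95% of 7425 windows of the same length laid end to end along the landscape. The core ATAAA, which CAATAAA contains, stood in 45 of the 72 HOXD13 windows (62.5%), in 58.7% genome-wide and in 31.7% of the windows along the landscape. For HOXA13 summits, 8 of 76 windows held a full motif (10.53%, genome-wide 12.6%). HOX13 summits in the landscape thus held these letters about as often as HOX13 summits elsewhere. A window without a match says only that these letters are not in it.

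A marker check of the whole libraries preceded the comparison. The promoters of Hoxa13, Hoxd13, Msx1 and Sall1, genes of the distal limb, overlapped H3K27ac in both pieces (4 of 4 each), as did those of the proximal genes Meis1, Meis2, Shox2 and Hoxa9 (4 of 4 each). Within 50 kb of the distal genes, H3K27ac covered 54357 bp in DFL and 40037 bp in PFL, and near the proximal genes 30525 bp in DFL and 27151 bp in PFL. The proximal list thus did not separate the pieces in its sum, although 3 of its 4 genes had more in PFL. The exception was Hoxa9, with 24417 bp in DFL and 15847 bp in PFL, which outweighed the other genes of the list. Hoxa9 belongs to the same cluster as Hoxa13 of the distal list, which had 24968 and 14774 bp. Muscle promoters (Myod1, Myog, Myf5, Pax7) were acetylated in 0 of 4 cases in DFL and 4 of 4 in PFL, with 2770 bp and 12838 bp nearby. Ectoderm promoters were acetylated in 4 of 4 cases in DFL and 2 of 4 in PFL, endothelial ones in 4 and 3 of 4, blood ones in 2 and 1 of 3, and those of nerve and glia in 1 of 3 in each. The length covered nearby was 12837 bp in DFL and 8514 bp in PFL for ectoderm, 12035 and 19431 bp for endothelium, 6686 and 5968 bp for blood, and 9547 and 11084 bp for nerve and glia, so that endothelial promoters and lengths went in opposite directions. The part of these other cell types in the results below was not tested. The lowest local background of a list, a measure of its depth, was 12.49 fragments for DFL and 11.9 for PFL H3K27ac, 3.06 and 4.75 for H3K27me3, 6.47 and 7.31 for CTCF, 6.10 for HOXA13 and 7.71 for HOXD13.

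**Figure D1:**
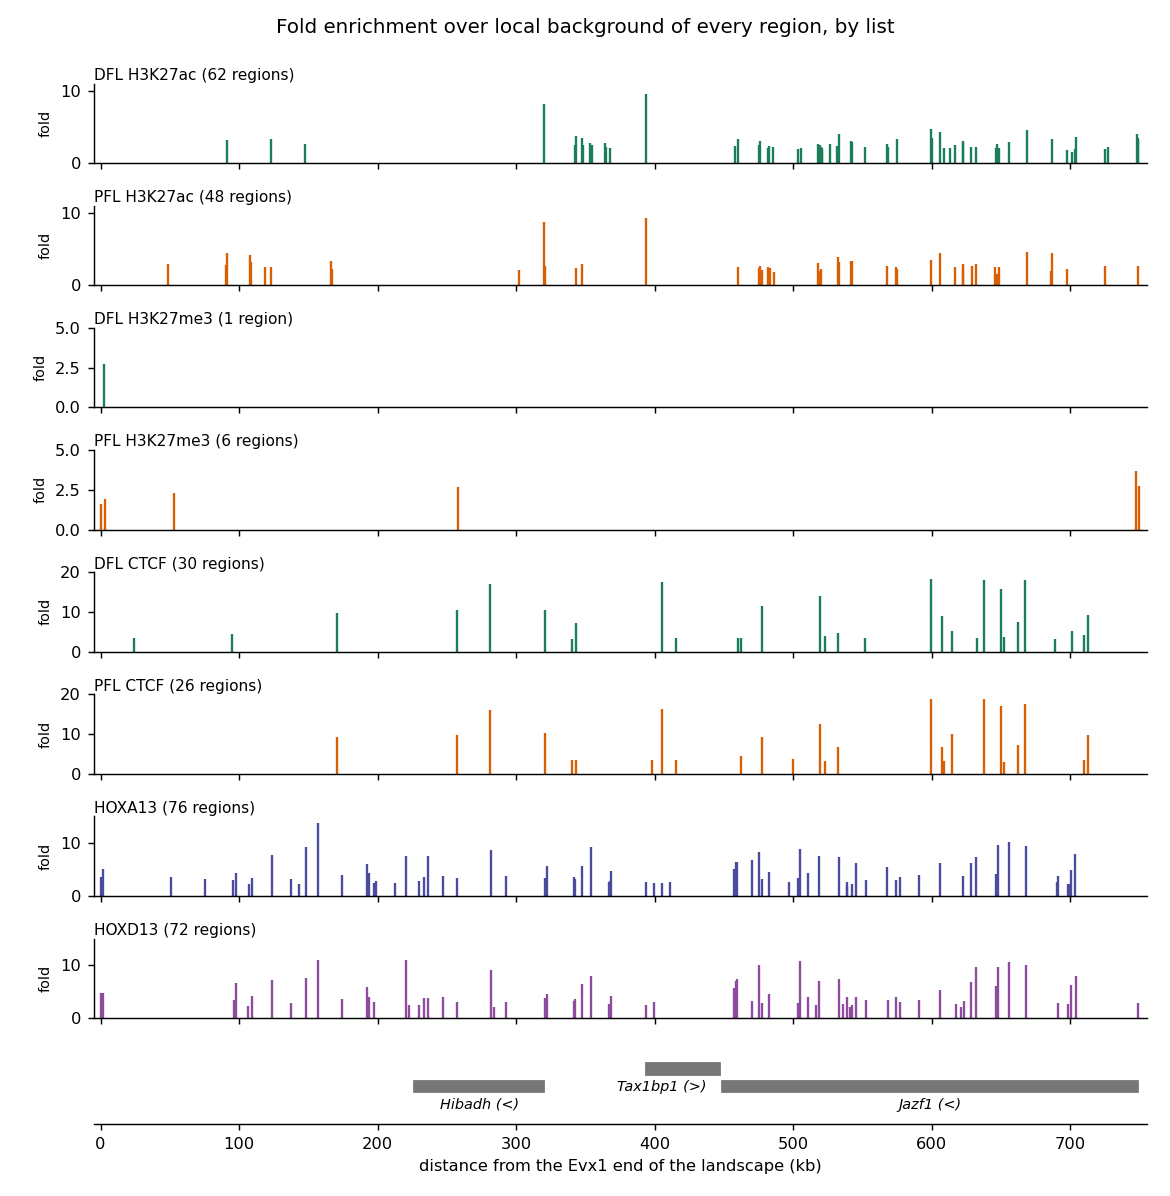
Every region of the 8 lists along the landscape, as its position (kb from the Evx1 end) against its fold enrichment over local background, with the genes below (> plus strand, < minus strand). The DFL H3K27ac regions crowd over Jazf1 (47 of 62), the first 226 kb hold 3 DFL and 9 PFL H3K27ac regions, and HOXA13 and HOXD13 regions are spread along the whole span.

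The landscape was richer than the genome at large in acetylation and most of all in HOX13 regions. Its 62 DFL H3K27ac regions were 3.64 times the 17.0 that a span of this length held on average, and its 48 PFL regions were 2.43 times the average of 19.8. HOXA13 regions stood at 4.0 times and HOXD13 regions at 4.80 times their averages, CTCF at 1.93 times in DFL and 1.73 times in PFL. H3K27me3 was the exception in DFL, with 0.387 times the average there and 1.52 times in PFL, from 1 and 6 regions.

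More of the landscape was acetylated in DFL than in PFL, but by a small margin. H3K27ac regions covered 33.0 kb in DFL and 28.5 kb in PFL, so that 53.7% of the covered length was from DFL. Genome-wide the share was 45.3%, and over the 2152 tiles of 750 kb with at least 10 kb of H3K27ac regions it had a median of 45.4% and a 10th to 90th percentile of 37.2 to 52.0%. The landscape lay just above that range. The 2 landscapes beside HoxD were farther apart, with 76.5% in C-DOM, the digit landscape from 73.95 to 74.65 Mb of chromosome 2, and 34.2% in T-DOM, the forearm landscape from 74.77 to 75.66 Mb.

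Of the 62 DFL H3K27ac regions, 25 overlapped no PFL region (40.3%, 95% interval 29.0 to 52.7%), against 26.7% of DFL regions genome-wide. Of the 48 PFL regions, 12 overlapped no DFL region (25%, interval 14.9 to 38.8%), against 38.1% genome-wide. The interval of the DFL share left out the genome-wide value, while that of the PFL share reached it. The DFL excess depended on the setting: its interval reached the genome-wide value when regions within 2 kb of a transcript start were left out (40.4%, 28.6 to 53.3%, genome-wide 36.6%), without the outer 50 kb (35.2%, 23.8 to 48.5%, genome-wide 26.7%) and with regions within 1 kb merged (35.7%, 23.0 to 50.8%, genome-wide 25.2%). In C-DOM 67.1% of DFL and 8% of PFL regions were without a counterpart, and in T-DOM 19.2% and 66.7%. On this measure the HoxA digit landscape lay between C-DOM and the genome-wide level. A region absent from a list only failed the threshold there, and the weakest summits listed here held 29 fragments in DFL and 27 in PFL.

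The balance between the pieces changed along the landscape, with PFL ahead near Evx1 and DFL ahead beyond Hibadh. Between Evx1 and Hibadh (52.32 to 52.55 Mb), 3 DFL and 9 PFL regions had their summit, 1 and 7 of them without a counterpart, and they covered 1.58 kb and 3.85 kb. Within Hibadh (chr6:52546228-52640389) there were 1 DFL and 2 PFL regions. Between Hibadh and Tax1bp1 (chr6:52640390-52713728) the order turned to 9 DFL and 3 PFL regions by summit, 7 and 1 of them without a counterpart. Within its borders H3K27ac covered 4.75 kb and 1.56 kb, which includes the parts of the Hibadh and Tax1bp1 promoter regions that reach into it. By these lengths it was the segment with the highest DFL share, 75.3%, near that of C-DOM. The segment of Tax1bp1 (chr6:52713729-52768796) held 1 region in each piece. Jazf1 (chr6:52768797-53068631) held 47 DFL and 32 PFL regions, 17 and 3 of them without a counterpart, over 24.4 kb and 20.6 kb, a DFL share of 54.2%. Most regions were intronic: 46 of 62 DFL summits lay in introns, 13 between genes and 3 in exons, and 34, 13 and 1 of the 48 PFL summits.

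**Figure D2:**
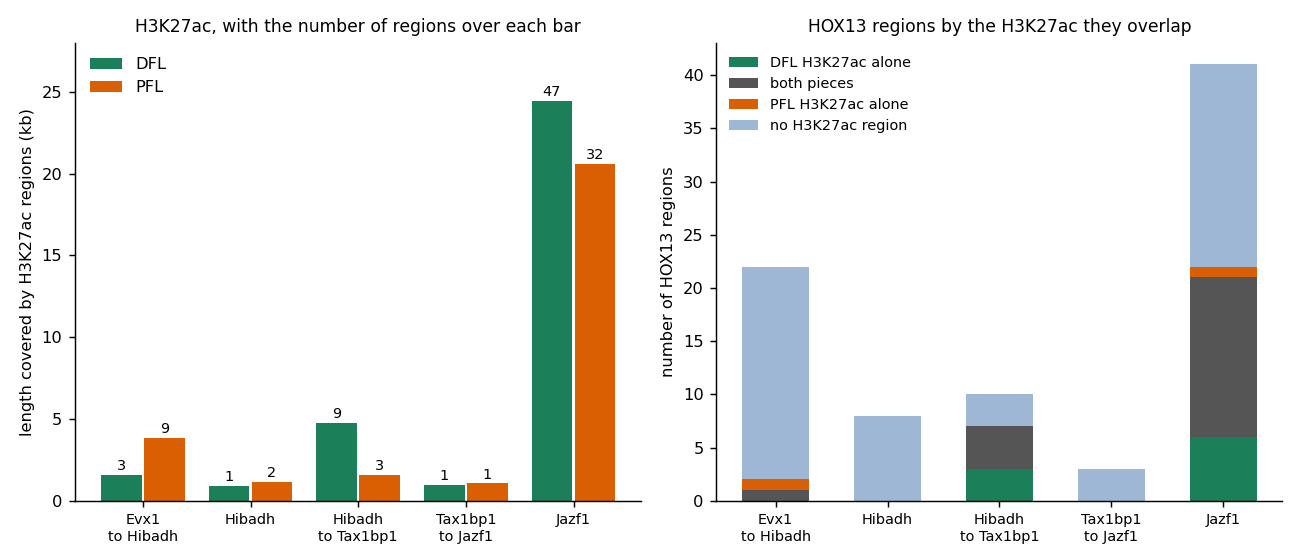
Left, length covered by H3K27ac regions (kb) in DFL and PFL for 5 segments of the landscape, with the number of regions by summit over each bar. Right, HOX13 regions per segment, stacked by the H3K27ac regions they overlap: 20 of 22 between Evx1 and Hibadh overlapped none, against 3 of 10 between Hibadh and Tax1bp1 and 19 of 41 in Jazf1.

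The segment between Hibadh and Tax1bp1 held a compact run of distal acetylation. All 9 DFL regions there lay from 52661950 to 52688232, and 7 of the 9 overlapped a HOX13 region. Both regions with a PFL counterpart were stronger in DFL. At chr6:52662867-52663491 the summit held 93 fragments in DFL and 33 in PFL, which after division by the lowest background of each library was a ratio of 2.68 (interval 1.78 to 4.12). At chr6:52667137-52667571 there were 84 and 38 fragments, a ratio of 2.1 (1.42 to 3.17). The remaining 7 were called in DFL alone at modest fold. The strongest by q-value, at chr6:52684171-52684534, had a fold of 2.84 and 57 fragments and overlapped no HOX13 region, and the one at chr6:52672738-52673316 had a fold of 2.77 and 47 fragments and overlapped a HOXA13 region. The only other PFL region in the segment, chr6:52640485-52640713 (fold 2.72, 50 fragments), lay beside the Hibadh promoter.

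In Jazf1 a strong region was called in DFL alone. At chr6:53023879-53024301, in an intron near the 5′ end of the gene, the DFL summit held 125 fragments, 10.01 times the lowest background of the library, at a fold of 3.57 and a −log10 q of 30.2. No PFL region overlapped it. Of the 10 DFL H3K27ac regions of highest −log10 q it was the only one without a PFL counterpart. Its neighbour at chr6:53022967-53023462 (fold 1.90, 66 fragments) was also called in DFL alone, and both overlapped HOX13 regions, the second a HOXA13 region only. The HOX13 site that spans the gap between them is the third sequence above.

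The remaining regions of highest −log10 q were promoters and elements shared by both pieces. The first 2 were the promoters of Tax1bp1 (chr6:52713385-52714667, fold 9.63) and Hibadh (chr6:52639506-52640419, fold 8.17). Then came intronic Jazf1 regions at chr6:52987669-52989335 (fold 4.52), chr6:52851926-52853139 (4.08), chr6:52924981-52926635 (4.35), chr6:52919161-52919564 (4.70), chr6:52966782-52967647 (2.71) and chr6:53006083-53007082 (3.30), and the intergenic region of ratio 2.68 described above (3.83).

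The PFL regions without a DFL counterpart were concentrated near Evx1, where 7 of the 12 lay. The highest fold of the 12 was that of chr6:52427772-52428438 (4.19, 53 fragments), about 108 kb into the landscape, beside chr6:52428651-52429022 (3.18, 40 fragments). Another pair stood at chr6:52486344-52486737 (fold 3.34, 42 fragments) and chr6:52486870-52487076 (fold 2.25, 28 fragments). Only 2 of the 12 overlapped a HOX13 region (16.7%, genome-wide 12.53%), the second of the first pair and the one beside the Hibadh promoter. The region of most fragments among them was chr6:52796859-52797361 in Jazf1, with 72 fragments at a fold of 2.17.

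Regions found in both pieces had much the same strength, with exceptions on both sides. For 37 DFL regions with a PFL counterpart the scaled summit pileup, the fragments over the summit divided by the lowest background of the library, was compared. The median log2 ratio of DFL to PFL was 0.056, against -0.16 genome-wide, 0.66 over 24 pairs in C-DOM and -0.093 over 21 pairs in T-DOM. The DFL value was at least 1.5 times the PFL value in 8 of 37 (21.6%, genome-wide 5.41%), and the PFL value at least 1.5 times the DFL value in 2 of 37 (5.41%, genome-wide 16.4%). The medians depended on the scaling. As ratios of fold, which is set against the local background of each summit, they were -0.034 in the landscape, -0.047 genome-wide, -0.134 in C-DOM and -0.069 in T-DOM, so that the landscape and the genome hardly differed on that scale.

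With each DFL region set against the PFL region it overlapped most, the interval of the ratio excluded 1 for 10 of the 37, 7 higher in DFL and 3 in PFL. Besides the intergenic regions above, the DFL-higher ones were in Jazf1. They were chr6:52779382-52780028 (75 and 32 fragments, ratio 2.23, interval 1.46 to 3.49), chr6:52966782-52967647 (152 and 65 fragments, 2.22, 1.65 to 3.02) and chr6:52919161-52919564 (83 and 45 fragments, 1.75, 1.21 to 2.58). Smaller ratios were found at chr6:53017566-53017785 (51 and 28 fragments, 1.73, 1.07 to 2.85) and chr6:52987669-52989335 (132 and 81 fragments, 1.55, 1.17 to 2.07). In the PFL direction stood chr6:52801850-52802398, with 48 and 71 fragments and a ratio of 0.643 (0.436 to 0.940), and chr6:52851306-52851629, where 77 DFL fragments faced 176 in the PFL region chr6:52851110-52852596, a ratio of 0.416 (0.314 to 0.547). The third, chr6:52851926-52853139, rested on the choice of summit. It had 144 fragments and a ratio of 0.778 (0.620 to 0.975) against that same PFL region, which it overlapped most but whose highest summit was 613 bp away. A second PFL region, chr6:52852707-52853180, had its summit 8 bp from the DFL one and 145 fragments, a ratio of 0.944 (0.745 to 1.198). When each DFL summit was set against the nearest PFL summit, a choice made after the data had been seen, the interval excluded 1 for 9 of 37, 7 higher in DFL and 2 in PFL, and the ratio at chr6:52851306-52851629 was 0.421 (0.318 to 0.553). With 37 such intervals at 95%, some would leave out 1 by counting error alone. The genome-wide share of shared regions whose interval leaves out 1 was not computed. These counts thus do not show whether the landscape differs from the genome.

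**Figure D3:**
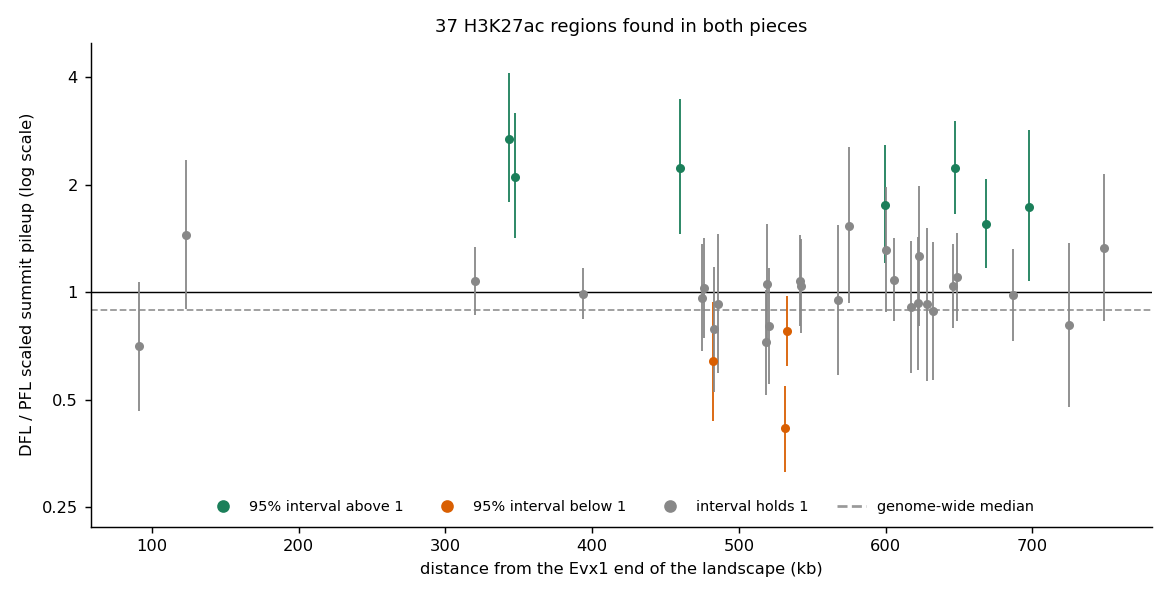
Ratio of DFL to PFL scaled summit pileup (log axis) for the 37 H3K27ac regions found in both pieces, by position (kb from the Evx1 end), with bars for the 95% counting interval. Green points (7) lie above 1, orange points (3) below, grey points have an interval that holds 1, and the dashed line is the genome-wide median. The orange point of ratio 0.778 turns to 0.944, with an interval that holds 1, against the nearest PFL summit.

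The local background around the acetylated regions rose in parts of Jazf1. At chr6:52965304-52966513 it was 4.50 times the lowest background of the library in DFL and 3.54 times in PFL. Since fold is set against this background, that region had a fold of 2.06 with 117 fragments in DFL and of 2.51 with 107 fragments in PFL.

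At the promoters of Hibadh and Tax1bp1 no difference in H3K27ac beyond counting error was found. At the Hibadh promoter the DFL and PFL H3K27ac summits held 184 and 163 fragments, a ratio of 1.07 (0.865 to 1.33). At the Tax1bp1 promoter they held 299 and 287 fragments, a ratio of 0.991 (0.840 to 1.17). The Hibadh promoter also held CTCF at a fold of 10.4 in DFL and 10.3 in PFL, and 2 HOXA13 regions of up to 5.65 and 2 HOXD13 regions of up to 4.53. The Tax1bp1 promoter had no CTCF region, and HOXA13 (2.70) and HOXD13 (2.38) were weak there. At Jazf1 the lists differed. Within 2 kb of its start, DFL had 3 H3K27ac regions over 975 bp, at folds of 4.04, 3.18 and 3.48, and no H3K27me3 in a shallower library. PFL had 1 H3K27ac region of 220 bp at a fold of 2.64, and 2 H3K27me3 regions over 1771 bp. The only H3K27ac region there found in both pieces, chr6:53068724-53069094, had 46 and 33 fragments, a ratio of 1.33 (0.829 to 2.14) whose interval held 1. Just outside the landscape, the Evx1 promoter had 1 H3K27ac region in DFL (fold 3.66) and none in PFL, with HOXA13 (5.48) and HOXD13 (4.96). The Hoxa13 promoter had 3 H3K27ac regions in DFL and 2 in PFL.

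H3K27me3 regions were few in the landscape, 1 in DFL and 6 in PFL, and lay mostly at its ends. In number they were 0.387 times the genome-wide average for such a span in DFL and 1.52 times in PFL. H3K27me3 covered 1.89 kb in DFL and 4.89 kb in PFL, a DFL share of 27.8%, against 39.1% genome-wide and a 10th to 90th percentile of 25.2 to 48.1% over 2103 tiles. The DFL region had a PFL counterpart (0 of 1 without one, genome-wide 9.05%), and 5 of the 6 PFL regions were without a DFL counterpart (genome-wide 44.0%). So few regions give no firm share, and the DFL library was the shallower of the pair. Without the outer 50 kb, or with a fold of at least 3, no DFL region was left.

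At the Evx1 end, the DFL region chr6:52321751-52323639 had a fold of 2.76 with 71 fragments over the summit. Its PFL counterpart chr6:52321814-52323922 had a fold of 1.95 with 152 fragments. The lower PFL fold stood on a higher local background, 16.4 times the lowest of its library against 8.19 times in DFL, and the scaled summit was 0.723 times as high in DFL as in PFL (0.538 to 0.965). The 2 summits compared lay 512 bp apart, and nearest summits were not compared for this mark, so this ratio may rest on the choice of summit. Also at this end, PFL had chr6:52320200-52320522 at a fold of 1.58 on a background of 21.3 times the lowest. At the far end, PFL H3K27me3 flanked the Jazf1 start, with chr6:53066720-53067794 at a fold of 3.70 and chr6:53068961-53069656 at 2.77. Between the ends there were 2 PFL regions only, chr6:52372885-52373162 (fold 2.31) and chr6:52577952-52578364 in a Hibadh intron (2.69). No H3K27me3 region was found in either piece over the run of distal acetylation between Hibadh and Tax1bp1. C-DOM had 0 DFL and 9 PFL H3K27me3 regions, and T-DOM 16 and 17.

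HOXA13 and HOXD13 shared more of their regions here than genome-wide. The 2 lists merged to 85 HOX13 regions, of which 63 were in both lists (74.1%, interval 63.9 to 82.2%), against 53.7% genome-wide, 62.2% in C-DOM and 66.3% in T-DOM. The T-DOM value lay inside the interval. HOX13 regions were also longer here, with medians of 520.5 bp for HOXA13 and 427 bp for HOXD13, against 369 and 283 bp genome-wide. Their median −log10 q was 12.48 and 12.51, against 6.31 and 6.43 genome-wide. The part of length and strength in the joint share was not tested, and this share was not recomputed under other settings. HOXA13 alone accounted for 13 and HOXD13 alone for 9. The median fold of the regions found in 1 list was low, 2.53 for HOXA13 and 2.45 for HOXD13, against 4.39 and 4.01 in the 63 joint sites. The thresholds of the lists can produce such a contrast, and no genome-wide medians stand beside it. In the joint sites the folds ran from 2.19 to 13.7 for HOXA13 and from 2.38 to 10.997 for HOXD13. The ratio of HOXD13 to HOXA13 fold had a median of 0.9998 and ran from 0.477 to 1.56, with HOXD13 higher in 31 sites and HOXA13 in 32.

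Most HOX13 regions lay outside acetylated regions, and those inside lay in DFL somewhat more often than in PFL. DFL H3K27ac overlapped 30 of the 85 (35.3%, interval 26.0 to 45.9%, genome-wide 28.3%) and PFL H3K27ac 23 (27.1%, 18.8 to 37.3%, genome-wide 26.8%). Both intervals hold the genome-wide value, so neither share differed from it by more than counting error. The shares depended on the overlap and the fold required. With at least 50% of the HOX13 region covered they were 16.5% for DFL and 11.8% for PFL, below the genome-wide 17.5% and 18.5%. With regions of a fold of at least 3 they were 19.0% and 12.1%, again below the genome-wide 20.6% and 19.5%. By class, 21 overlapped H3K27ac of both pieces, 9 of DFL alone, 2 of PFL alone and 53 of neither (62.4%, genome-wide 67.3%). In C-DOM the shares were 44.4% for DFL and 11.1% for PFL, and in T-DOM 16.8% and 29.5%. Seen from the acetylated regions, a HOX13 region overlapped 25 of the 37 DFL regions shared with PFL (67.6%, 51.5 to 80.4%, genome-wide 40.9%) and 11 of the 25 without a PFL counterpart (44%, 26.7 to 62.9%, genome-wide 32.5%). The lengths of these groups differed too, with medians of 538 bp and 303 bp, and a longer region meets more sites. HOX13 regions were also denser here, at 4.0 times the genome-wide average for HOXA13 and 4.80 times for HOXD13. Their median lengths were 520.5 and 427 bp, against 369 and 283 bp genome-wide. Denser and longer HOX13 regions meet more acetylated regions, and their part in these shares was not tested.

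The overlap depended on the segment. Between Evx1 and Hibadh, 20 of the 22 HOX13 regions overlapped no H3K27ac region of either piece, and within Hibadh 8 of the 9 that touched the gene did not. Between Hibadh and Tax1bp1, DFL H3K27ac overlapped 7 of 10, and in Jazf1 21 of 41. HOX13 binding in the earlier whole limb bud was thus present along the whole landscape, while the overlap with the E12.5 acetylation was mostly beyond Hibadh. The H3K27ac regions themselves were few before Hibadh, with 3 DFL and 9 PFL summits between Evx1 and Hibadh against 47 and 32 in Jazf1. There was thus less to overlap near Evx1, and the difference between segments is no separate result about the HOX13 sites.

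Joint sites under DFL acetylation had higher median folds than those without any. The 8 joint sites in H3K27ac of DFL alone had median folds of 7.14 for HOXA13 and 7.36 for HOXD13. The 18 in shared H3K27ac had 5.97 and 6.23, the 2 in PFL alone 2.77 and 3.40, and the 35 in neither 3.92 and 3.89. The groups overlapped widely, as the plot of HOXA13 against HOXD13 fold shows, and genome-wide the same medians were 5.35 and 4.63, 4.58 and 4.02, 4.44 and 3.62, and 4.22 and 3.56. Where a joint site lay in acetylation of both pieces, its summit stood a median of 238.5 bp from the nearest DFL H3K27ac summit. For sites in DFL acetylation alone this distance was 371 bp, and for sites in neither it was 6670 bp, with 20 of those 35 more than 5 kb away. The order of these distances follows from the grouping, since a site that overlaps a DFL region lies near a DFL summit. It is thus no separate result.

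**Figure D4:**
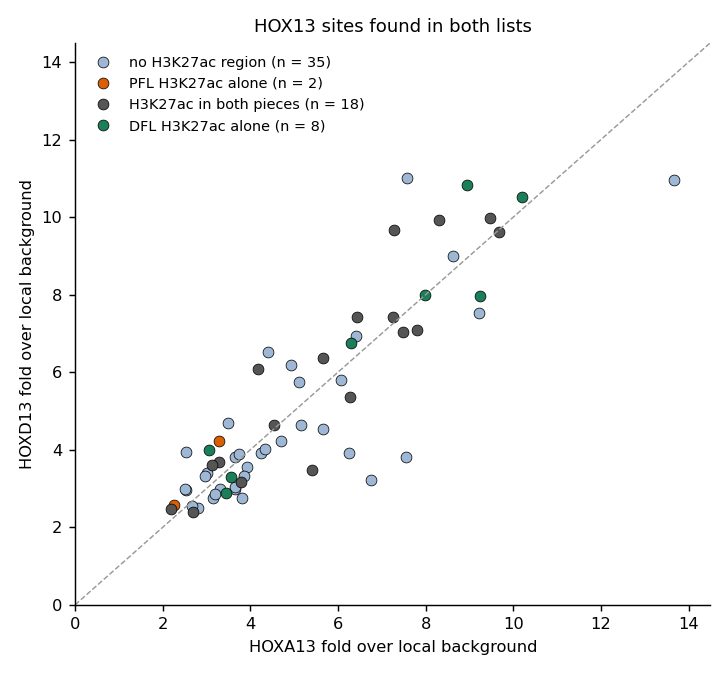
HOXA13 fold against HOXD13 fold over local background for the 63 joint sites, coloured by the H3K27ac regions they overlap, with the line of equality dashed. Sites in DFL H3K27ac alone (n = 8) and in both pieces (n = 18) reach high folds on both axes, and the site of highest HOXA13 fold, 13.7, overlaps no H3K27ac region.

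Among the joint sites in DFL H3K27ac, the highest HOXD13 fold was 10.8 at chr6:52824679-52825351, where HOXA13 had 8.93 and the acetylation was found in DFL alone. The DFL H3K27ac region that overlapped this site was weak, with 40 fragments and a fold of 2.06, and its summit lay 443 bp away. At chr6:52974650-52975916 the folds were 10.2 for HOXA13 and 10.52 for HOXD13. It again overlapped DFL acetylation alone (48 fragments, fold 2.91, summit 333 bp away). At both, high HOX13 fold thus stood beside a weak H3K27ac region that did not reach the HOX13 summit. High HOX13 fold was met with high acetylation at chr6:52987436-52988480 (HOXA13 9.47, HOXD13 9.98), where DFL had 132 and PFL 81 H3K27ac fragments and a CTCF region overlapped. In addition, 3 Jazf1 sites were acetylated in both pieces, chr6:52794786-52795796 (8.32 and 9.92), chr6:52951583-52952353 (7.29 and 9.66) and chr6:52967584-52968264 (9.68 and 9.61). The last of the group were acetylated in DFL alone, chr6:53023421-53024089 (7.99 and 7.99) in Jazf1 and chr6:52673264-52674325 (9.25 and 7.96) between Hibadh and Tax1bp1.

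Sites as strong were found with no acetylation. At chr6:52476632-52477220, between Evx1 and Hibadh, HOXA13 had a fold of 13.7, the highest of the landscape, and HOXD13 10.96, and the nearest DFL H3K27ac summit was 9324 bp away. At chr6:52539863-52540477 HOXA13 had 7.56 and HOXD13 10.997, with the nearest DFL H3K27ac summit 72564 bp away. At chr6:52601314-52602447, in an exon of the unclassified transcript Gm44434 inside Hibadh, the folds were 8.62 and 8.999 and a CTCF region overlapped. The site at chr6:52467735-52468383 (9.22 and 7.52) was near acetylation without touching it, 411 bp from the summit of the DFL region chr6:52467472-52467718. All 4 windows held the ATAAA core, against 1 of the 4 printed windows of sites that overlapped DFL acetylation alone, a count too small to compare.

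CTCF binding was largely the same in both pieces. Of 30 DFL regions 23 had a PFL counterpart (76.7%, interval 59.1 to 88.2%, genome-wide 88.7%), and of 26 PFL regions 23 had a DFL one (88.5%, genome-wide 91.8%). The DFL share was below the genome-wide one, whose value lay just beyond the interval. Without the outer 50 kb the share was 80.8% (62.1 to 91.5%), and this interval held the genome-wide value. Merged, there were 33 sites, of which 23 were shared, 7 were found in DFL alone and 3 in PFL alone. Only 3 sites lay between Evx1 and Hibadh, with 1 of them shared, and the strongest were in Jazf1, Tax1bp1 and Hibadh.

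The DNA of the shared CTCF sites of highest DFL fold that held a CTCF core is shown to give its orientation, which bears on how CTCF sites pair in loops. Each window is 61 bp around the summit, and capitals mark the core, one of AGGGGGC or AGGTGGC or AGAGGGC or AGATGGC, or its reverse complement.
Jazf1 intron, plus strand, chr6:52957882-52957942: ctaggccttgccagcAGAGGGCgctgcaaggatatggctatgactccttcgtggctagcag
Jazf1 intron, minus strand, chr6:52987464-52987524: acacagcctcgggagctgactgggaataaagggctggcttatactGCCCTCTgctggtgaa
Gm44434 exon inside Hibadh, minus strand, chr6:52601279-52601339: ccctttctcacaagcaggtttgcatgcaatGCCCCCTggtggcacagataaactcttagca
Jazf1 intron, minus strand, chr6:52969927-52969987: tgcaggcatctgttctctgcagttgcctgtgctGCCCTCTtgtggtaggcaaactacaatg

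These 4 sites had folds of 18.0 in DFL and 18.8 in PFL, 17.9 and 17.6, 17.1 and 16.0, and 15.7 and 17.1, in the printed order. The 2 other named sites, chr6:52918964-52919527 in Jazf1 (18.3 and 18.8) and chr6:52724622-52725219 in a Tax1bp1 intron (17.6 and 16.4), held no such core. No interval of the ratio left out 1 at any of the 6. Over the 23 shared sites the core lay on the plus strand in 7 and the minus strand in 6, and 10 had none. Over DFL summits 13 of 30 windows held a core (43.3%, 27.4 to 60.8%, genome-wide 48.6%) and over PFL summits 15 of 26 (57.7%, 38.9 to 74.5%, genome-wide 48.7%), against 3.47% of 12295 windows along the landscape. The CTCF sites of the landscape thus held the core about as often as CTCF sites elsewhere.

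Sites found in 1 piece were weak, a contrast that the thresholds of the lists can also produce. The 7 in DFL alone had folds from 3.21 to 5.09, the highest at chr6:53021026-53021435, which overlapped H3K27ac of DFL alone, followed by chr6:52414571-52414837 at 4.42. The other 5 were chr6:52344099-52344405 (3.48), chr6:52779693-52779917 (3.31), chr6:52871494-52871713 (3.48), chr6:52952620-52952845 (3.47) and chr6:53008424-53008708 (3.21). The 3 in PFL alone, chr6:52717924-52718144, chr6:52819428-52819668 and chr6:52928995-52929242, had folds of 3.37, 3.61 and 3.33. The core was found in 1 of these 10 windows, that of the last PFL site. Among shared sites the median log2 ratio of scaled summits was 0.18, against 0.14 genome-wide. The interval left out 1 in 3 of 23, a count for which no genome-wide share was computed. At chr6:52662984-52663375 DFL had 59 and PFL 28 fragments (folds 7.31 and 3.49, ratio 2.38, 1.495 to 3.88). This site lay inside the H3K27ac region between Hibadh and Tax1bp1 that had the ratio of 2.68, so both marks were higher in DFL there. At chr6:52934029-52934457 the order was turned, with 37 and 82 fragments (folds 5.09 and 9.90, ratio 0.510, 0.336 to 0.761). The remaining one was chr6:52926946-52927465, with 75 and 57 fragments and a ratio of 1.49 (1.04 to 2.14).

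**Figure D5:**
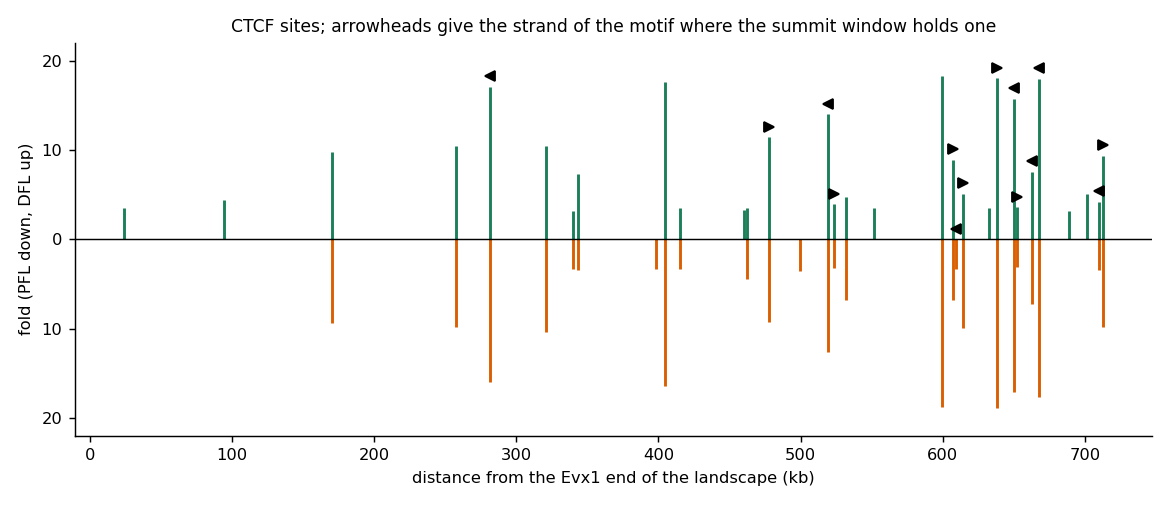
CTCF sites by position (kb from the Evx1 end), with the fold in DFL drawn upward and in PFL downward, and arrowheads for the strand of the core where the summit window held one. The tall sites mirror each other in both pieces, and the sites drawn on 1 side only (7 DFL, 3 PFL) have folds of 5.09 or less.

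Joined where they overlapped, the regions of all lists formed 138 elements, of which 63 held H3K27ac, 84 HOX13, 33 CTCF and 6 H3K27me3. HOX13 and H3K27ac stood together in 31 elements, 23 with acetylation of both pieces, 7 of DFL alone and 1 of PFL alone. HOX13 was alone in 47, H3K27ac alone in 28 and CTCF alone in 20. HOX13 elements without any other mark were thus the most frequent class, and elements of HOX13 with acetylation in both pieces were more frequent than those with acetylation in DFL alone. This order is not particular to the landscape. Of the 76732 HOX13 regions genome-wide, 51623 overlapped no H3K27ac region, 17137 overlapped H3K27ac of both pieces, 4554 of DFL alone and 3418 of PFL alone.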

How the data were processed

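The 6 samples and the HOXA13 and HOXD13 lists were available as peak lists in mm10 coordinates. Per the labels and the methods, the authors trimmed reads with cutadapt, aligned them with Bowtie, filtered them with SAMtools and called peaks with MACS2, for each library alone and without an input control. The authors' lists give for each summit a fold enrichment (the ratio of pileup to local background) and the −log10 p and −log10 q values of that enrichment. The offset of the summit from the start of the interval was also deposited.

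Lines of the same interval were collapsed, overlapping regions of a list merged, and the 20 chromosomes from 1 to X kept. Regions counted as shared at an overlap of at least 1 bp. The pileup (k) and background (b) at each summit were solved as (k + 1) / (b + 1) = fold together with the Poisson tail, giving a whole-number pileup for at least 99.99% of the lines of each list. The solver was tested on simulated data. Shares have Wilson 95% intervals and pileup ratios exact binomial ones. Read totals are not part of the lists, and the lowest local background served as the scale.

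Promoters reached 2 kb to either side of a transcript start of GENCODE M21. Sequences came from the RefSeq copy of GRCm38.p6. Analyses used Python 3.11.15, NumPy 2.4.6, pandas 2.3.3 and SciPy 1.17.1. The named items were the protein-coding genes of the landscape, its 10 DFL H3K27ac regions of highest −log10 q, the 5 such PFL regions without a DFL counterpart, every H3K27me3 region, every CTCF site found in 1 piece alone, the 6 shared CTCF sites of highest DFL fold, and the joint HOX13 sites of highest HOXD13 fold, 8 in DFL H3K27ac and 4 in none. Other regions named were chosen after their values were seen. Members, lists and markers were chosen with earlier results of these data known. Alternatives were a −log10 q of at least 5, a fold of at least 3, an overlap of 50%, other scalings of the pileup, other borders and, added after the data were seen, the nearest PFL summit in place of the highest one of the region overlapped most.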

Additional observations from a re-analysis of the deposited data

How the results depend on the processing

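Of 57 values recomputed under other settings, 49 stayed inside the counting interval of the main value, without a change of sign where the value was a log2 ratio. Another 6 left that interval, and 2 log2 ratios changed sign. Counted separately, 49 of the 57 lay on the same side of the genome-wide value as the main value did. These were not all the same values as the 49 inside the interval. The DFL share of H3K27ac length stayed between 51.2 and 55.4% and the share of DFL H3K27ac regions without a PFL counterpart between 35.2 and 48.4%, above the genome-wide value in 6 of 6 and 7 of 7 alternatives, although in 3 of the 7 the interval of the second share reached it. With a fold of at least 3 the share of HOX13 regions was 19.0% in DFL and 12.1% in PFL H3K27ac, and with an overlap of 50% it was 16.5% and 11.8%, below the genome-wide shares under the same settings (20.6 and 19.5%, 17.5 and 18.5%). With a −log10 q of at least 5 the share of HOX13 regions in PFL H3K27ac was 19.4%, also below the genome-wide value (25.1%). The DFL share of H3K27me3 length was 0 with a fold of at least 3 (1 region left) and 0 without the outer 50 kb (2 regions left). It rose above the genome-wide value with regions within 2 kb of a transcript start left out (37.7 against 35.6%, 5 regions left). The median log2 ratio of shared H3K27ac regions was -0.037 divided by local background (genome-wide -0.047) and -0.013 with a −log10 q of at least 5. The cause of these shifts was not tested, beyond the fewer regions that stricter settings leave. The share of PFL H3K27ac regions without a DFL counterpart rose above the genome-wide value with a −log10 q of at least 5 (33.3 against 32.6%) and with a fold of at least 3 (31.2 against 29.6%). No paired analysis was possible because each mark and piece had 1 library and no result came from a test. The H3K27me3 lists had the lowest local backgrounds and few regions here, so their share has no firm value.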
